A study of Mus musculus with 12 samples.

Results

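Livers of mice fed a Western diet were compared with livers of mice fed chow, and both groups had received the same empty vector. The comparison took 6 of the 12 libraries of the series, 3 per diet, and its members were all 50499 genes of the count table. Of these, 30130 had no read in any of the 6 libraries and 11934 passed the filter on low counts and were tested. The mice were wild-type males, C57Bl/6NCrl in the protocol and C57bl/6 in the sample labels. From the age of 6 weeks one group ate chow and drank normal water (chow null below), and the other ate a Western diet and drank sugar water (Western null). After 12 weeks all were injected through the tail vein with AAV8-TBG-Null, an adeno-associated virus of serotype 8 whose thyroxine-binding globulin promoter is active in hepatocytes and which carried no silencing sequence. Tissue was collected after another 12 weeks, when the diets had run for the whole time. The series used this regimen as a model of metabolic dysfunction-associated steatohepatitis, in which fat, inflammation and scarring occur together in the liver. The labels give neither the hour of collection nor the fasting state. The labels number the replicates but do not say that each is a separate mouse, so p-values measure the spread between samples only. That spread was estimated over all 12 libraries of the series, the groups outside this comparison included. This gave 8 residual degrees of freedom, against 4 for the compared groups alone.

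Hepatocytes make most of the liver's RNA. They burn, build and export fat, make cholesterol and bile acids, secrete most plasma proteins and detoxify foreign compounds, and several of these programmes follow growth hormone, insulin or the daily clock. Kupffer cells are the resident macrophages. In fatty liver disease they are joined by macrophages that take up lipid, and stellate cells turn into producers of collagen. RNA was taken from whole tissue, so fewer cells of a type and less RNA per cell cannot be told apart anywhere below.

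Reads per library ranged from 1646853 to 9512246 counts, and 3 counts, the floor used here, corresponded to between 0.261 and 1.69 CPM (counts scaled to a common library size with TMM factors). Chow null replicate 2 and Western null replicates 1 and 2 were the shallow libraries. Reads of 18S ribosomal RNA made up 25.2%, 30.4% and 4.28% of the chow null libraries and 5.80%, 14.4% and 2.84% of the Western null libraries. Replicates did not vary equally: over 7459 genes the median standard deviation of log2 CPM was 0.34 in chow null and 0.21 in Western null. The tissue label held. The summed level of 5 hepatocyte markers (Alb, Cyp2e1 and Serpina1a among them) was 57522, 89805 and 65956 CPM in chow null and 46313, 45071 and 51356 CPM in Western null, where 1 of the 5, Serpina1a, was called lower. Reads were counted over whole gene spans, introns included, and genes lying inside another gene were listed at 0. None of the 10408 genes inside another had a count in the 6 libraries, so reads in shared stretches appear to have been counted for neither gene. Among genes described below, Usp2, Smpd3, Ifi27l2a and Cyp2a22 overlap a neighbour over 65.7%, 62.7%, 61.8% and 51.8% of their span. Their counts would then come from the rest of the span.

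On the Western diet 769 genes were higher and 808 lower, which is 6.44% and 6.77% of all tested genes (13.2% together), by edgeR's quasi-likelihood test with a Benjamini-Hochberg adjusted p under 0.05. The median log2 fold change was 1.71 among the higher and -1.28 among the lower genes. Changes of at least 4-fold made up 299 of the higher and 171 of the lower genes, and for 85 and 49 genes the whole 95% interval lay beyond 4-fold. All 3 Western null libraries lay above all 3 chow null libraries for 2116 genes (17.7%) and below them for 2029 (17%), whether or not the test called them. Among these, 2614 genes were not called, and 454 of the 2614 were called when only the 6 libraries were fitted. The test was repeated with each of the 6 libraries left out, and 501 of the 1577 calls (271 higher, 230 lower) were made in all 6 repeats. A gene described below as having risen or fallen belongs to those 501 unless the libraries whose omission ended its call, or the number of repeats that made it, stand beside it. Libraries named in this way were left out singly. The repeats called 429, 809 and 337 genes higher without chow null replicates 1, 2 and 3, and 459, 441 and 507 without Western null replicates 1, 2 and 3. They called 526, 1008 and 321 genes lower in the first case, and 363, 330 and 483 in the second. Folds are fitted log2 fold changes of Western null over chow null with their standard error. Adjusted p-values are from the same edgeR quasi-likelihood test throughout, while 95% intervals are not adjusted for the number of genes, so that an interval may leave out 0 for a gene that was not called.

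**Figure D1:**
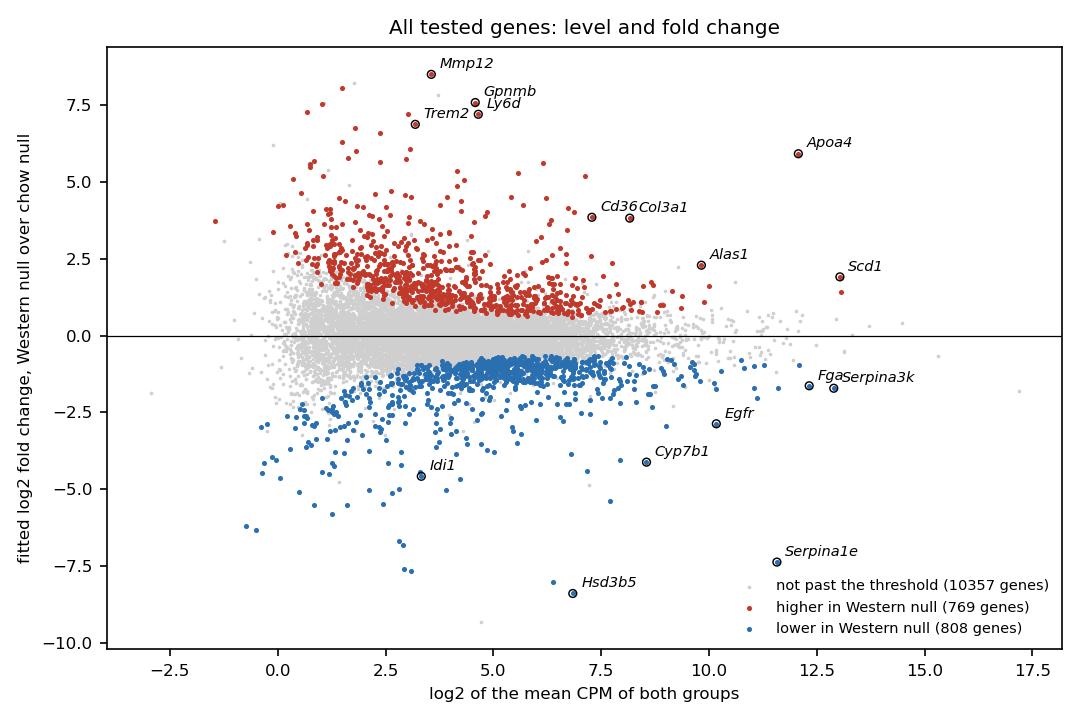
Each point is 1 of the 11934 tested genes, placed by the log2 of its mean CPM over both groups (horizontal) and its fitted log2 fold change of Western null over chow null (vertical), with 769 higher genes in red, 808 lower genes in blue and the rest in grey. Scd1 and Apoa4 stand out at high levels above 0, and Serpina1e and Hsd3b5 far below it.

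Gene span moved with the result. Tested genes were cut by span into 5 classes of like size. In the shortest class (up to 8.92 kb) the median log2 fold change was 0.29 and 10.6% of genes were higher against 3.06% lower. In the longest class (from 74.9 kb) it was -0.38, with 3.85% higher and 15.8% lower. With each library's trend on gene span taken out, an alternative chosen after seeing the data, 699 genes were higher and 629 lower, and 1151 of the 1577 calls were shared. The part of span in the group results below was otherwise not tested. For several lists of mostly short or long genes the median over tested genes of like span is given beside the list's own.

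The largest gains in mean CPM among called genes were those of Scd1, Apoa4 and Rpph1, the RNA of RNase P. Scd1, the desaturase that makes oleate and palmitoleate, stood at 1969, 4779 and 3839 CPM in chow null and at 15336, 12805 and 11676 CPM in Western null. Its log2 fold change was 1.91 ± 0.38 (adjusted p = 0.0041). Apoa4, an apolipoprotein of intestine and liver that is carried on lipid-rich particles, went from 99.8, 203 and 119 CPM to 10263, 6883 and 8276 CPM, a log2 fold change of 5.92 ± 0.38 (adjusted p = 2.51e-07). The groups of both genes were apart, and the chow libraries of Scd1 varied more than the Western null ones. Alas1, which starts haem synthesis, rose from 209, 347 and 367 CPM to 1072, 1805 and 1639 CPM. Fmo5, a flavin monooxygenase, and Gpt2, the mitochondrial alanine aminotransferase, rose by 1.61 ± 0.24 and 1.45 ± 0.27 on the log2 scale. Also among the 15 called genes with the largest gain in mean CPM were Psap, Ctsb, Krt8, Col3a1, Cyp2a5 and Rmrp, all described with their groups except Rmrp, the RNA of a ribosomal-RNA-processing enzyme (254, 88.7 and 259.7 CPM in chow null, 636, 709.8 and 555 CPM in Western null). The remaining genes of that set lost their calls in some of the repeats. The call was lost for Rpph1 (chow null replicates 1 and 3 or Western null replicate 2, 1.23 to 1.27) and Hspa8 (chow null replicate 3 or Western null replicates 1 and 2, 0.78 to 0.91), and Pcx and Slc25a47 kept it in 1 and 1 of the 6 repeats. With the gene-span trend removed Rmrp, Rpph1, Hspa8 and Slc25a47 were not called.

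Of the 15 called genes with the largest loss in mean CPM, most encode secreted proteins. Serpina3k, a serine protease inhibitor of mouse plasma, stood at 11224, 14217 and 9579.7 CPM in chow null and 3253, 3249 and 4151 CPM in Western null, and the groups did not overlap (log2 fold change -1.72 ± 0.25, adjusted p = 0.000431). Serpina1e, an alpha-1-antitrypsin gene with male-biased expression, fell from 7641, 5503 and 5054 CPM to 43, 33.1 and 33.7 CPM. Its log2 fold change was -7.38 ± 0.88. Fga and Fgg, fibrinogen chains, fell, at a log2 fold change of -1.64 ± 0.32 and -1.72 ± 0.36 on the log2 scale, and Mup3, a major urinary protein, at -2.04 ± 0.34. Egfr, the receptor for epidermal growth factor, went from 1664, 1650.5 and 2771 CPM to 184, 258 and 386 CPM (log2 fold change -2.87 ± 0.45). Serpina1c, Serpina1d and Fgb, of the same set, are given with their groups. Pck1, Mug1, Plg, Vtn, Pigr and Malat1 completed it, but each lost its call in at least 3 of the 6 repeats (1, 1, 3, 1, 2 and 1 calls kept, in that order).

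**Figure D2:**
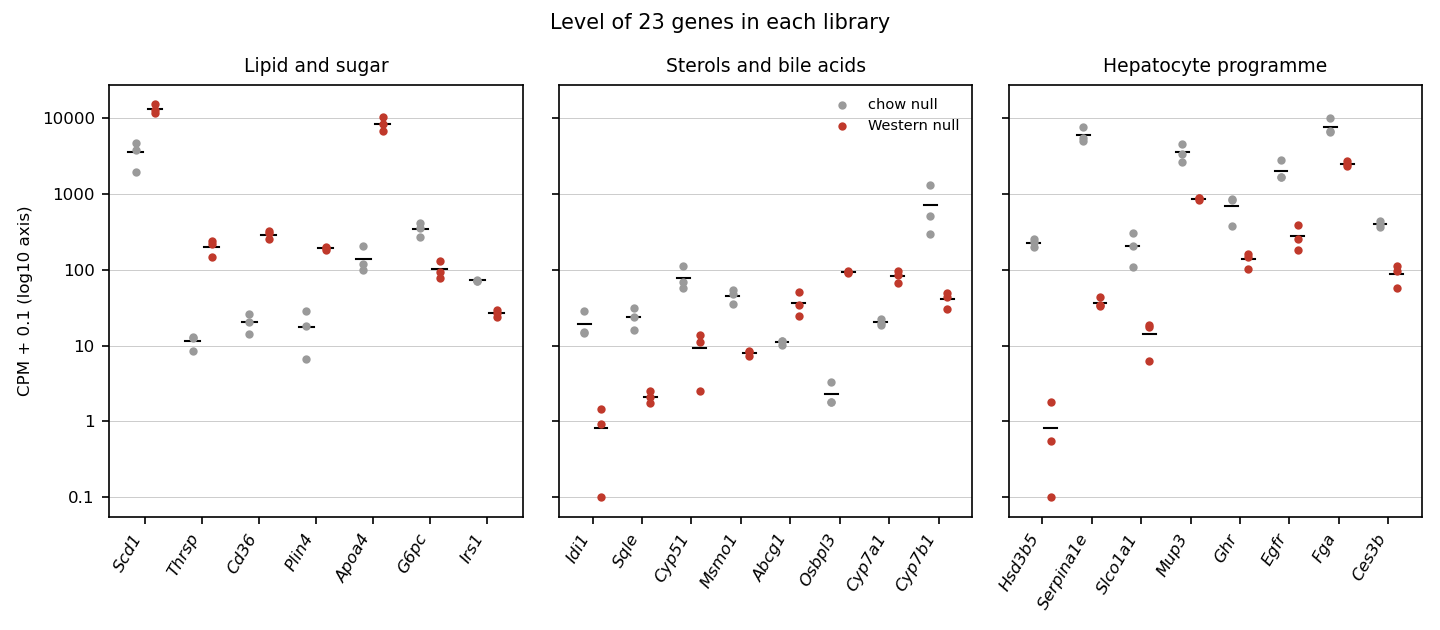
Points are CPM + 0.1 of single libraries on a log10 axis for 23 genes in 3 panels, grey for chow null and red for Western null, and black bars are group means (n = 3 libraries each). The groups are apart for each gene drawn, and the gap is widest for Apoa4, Serpina1e and Hsd3b5.

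Of 22 tested genes of fatty acid synthesis and desaturation, 4 rose (18.2%, against 6.44% of all genes) and none fell. The 4 were Scd1, Scd2, Thrsp and Aacs, and all 4 calls held in each of the 6 repeats. Thrsp, a lipogenic nuclear protein that answers to thyroid hormone and carbohydrate, stood at 8.46, 13 and 12.5 CPM against 149, 236 and 216 CPM (log2 fold change 4.17 ± 0.55, adjusted p = 0.000417). Aacs, which activates ketone bodies for lipid synthesis, rose by 2.86 ± 0.46 and Scd2 by 2.34 ± 0.43. The central enzymes of the pathway were not past the threshold. Fasn, the fatty acid synthase, had a 95% interval of -0.19 to 1.42 on the log2 scale, Acaca, the acetyl-CoA carboxylase, one of -0.02 to 1.00, and Acly, the citrate lyase, one of -1.28 to -0.10. These 3 were picked for description with their values in view.

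Cd36, a fatty acid translocase at the cell surface, was measured at 14.1, 20.3 and 26 CPM in chow null and 323, 301 and 251 CPM in Western null, a 14.4-fold difference (log2 fold change 3.85 ± 0.55, adjusted p = 0.000684). The Western null values were close together and far above every chow value. Fabp4, a fatty acid carrier of adipocytes and macrophages, rose by 2.83 ± 0.51. These were the 2 higher calls among 17 tested genes of fatty acid uptake, binding and activation (11.8%, against 6.44% of all genes). The list as a whole had a median of -0.12 with 8 members positive. Acsl3, an acyl-CoA synthetase, was its lower call (-1.28, made in 1 of the 6 repeats). Among 17 lipid droplet proteins and lipases all 17 had positive log2 fold changes (median 0.89, against -0.03 over all tested genes and 0.10 over those of like span). The test called 4 of them higher (23.5%, against 6.44% of all genes). Plin4, a droplet coat protein, rose from 6.51, 18.1 and 28.1 CPM to 200, 184 and 194 CPM. Cidec, which fuses droplets into large ones, stood at 3.66, 9.03 and 7.66 CPM in chow null and 139, 147 and 140.3 CPM in Western null, so the groups were far apart. Its call (log2 fold change 4.47 ± 1.08, adjusted p = 0.0275) was nonetheless made in 0 of the 6 repeats. Plin3 and Hsd17b13 rose by less and kept their calls in 2 and 1 of the repeats.

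Triglyceride and phospholipid synthesis had no called gene among 24 tested by edgeR's test, although 8 of them had all Western null libraries above all chow null libraries (33.3%, against 17.7% of all genes). Unadjusted p was under 0.05 for 6 genes, of which Gpat3, Lpin1, Lpin2, Mogat1 and Agpat1 pointed up and Chka down. Lpin1, a phosphatidate phosphatase, read 29.9, 84.1 and 126 CPM in chow null and 240.4, 319 and 208 CPM in Western null, so most of its spread lay between chow libraries. Dgat2, which adds the last acyl chain, had an interval of -0.28 to 0.86. In apolipoproteins and lipoprotein assembly, Apoa4 rose and Apom, the sphingosine-1-phosphate carrier of HDL, fell from 126, 162 and 120.5 CPM to 55.3, 55.5 and 48 CPM. These were the only calls among 19 genes (5.26% each way, near the 6.44% and 6.77% of all genes).

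Fatty acid oxidation and ketogenesis leaned upward without firm single calls. Of 33 tested genes 30 had positive log2 fold changes, with a median of 0.59, and 6 were called higher (18.2%, against 6.44% of all genes). The number of these calls made in all repeats was 0. Vnn1, a pantetheinase controlled by PPARalpha, stood at 29.4, 21.5 and 18.4 CPM against 141, 121 and 162 CPM and lost its call without chow null replicate 3 (log2 fold change 2.45 there, 2.61 with all libraries). Acadm, Acads and Bdh1, enzymes of beta-oxidation and of ketone body metabolism, had log2 fold changes of 1.10, 1.28 and 1.02 and kept their calls in 3, 1 and 1 of the 6 repeats. Cpt1a, which admits fatty acids to mitochondria, was not called, with an interval of 0.16 to 1.19. Ppara itself had an interval of -0.38 to 0.67. Cyp4f14, an omega-hydroxylase of eicosanoids, fell, at a log2 fold change of -1.31 ± 0.27.

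The summed level of the 33 oxidation genes was 10685, 11502 and 10597 CPM in chow null and 17361, 16719 and 15493 CPM in Western null. Oxidative phosphorylation subunits of the nucleus also lay mostly above 0: 60 of 67 were positive with a median of 0.34, where tested genes of like span had a median of 0.19. Of these, Uqcr10 of complex III rose by 1.32 ± 0.28, and Cox4i1 of complex IV was the other call (log2 fold change 0.79, kept in 1 of 6 repeats). The 7 tested genes of the mitochondrial genome pointed the other way with wide errors. COX1, a subunit of complex IV, was at 6752, 1553 and 4271 CPM in chow null and 1984, 1445 and 2073 CPM in Western null. Chow null replicates 1 and 3 were the high libraries, replicate 2 lay within the Western null range, and no mitochondrial gene was called (the COX1 interval was -2.56 to 0.17).

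Cholesterol synthesis genes were lower as a set. Of 24 tested genes of synthesis and uptake, 15 fell and none rose (62.5% against 6.77% of all genes), with a median log2 fold change of -1.31. The calls numbered 6 to 14 when single libraries were left out, and 6 genes kept theirs each time. Idi1, the isopentenyl-diphosphate isomerase, read 28.3, 14.7 and 15.1 CPM in chow null and 0, 1.36 and 0.808 CPM in Western null (log2 fold change -4.58 ± 0.66, adjusted p = 0.000417). Sqle, the squalene epoxidase, fell from 31, 23.7 and 16.1 CPM to 1.97, 2.39 and 1.62 CPM, at -3.63 ± 0.65. The later steps followed, with Cyp51 at -3.12 ± 0.56, Nsdhl at -2.84 ± 0.51 and Msmo1 at -2.54 ± 0.49, which together strip methyl groups from lanosterol. Hmgcs1, at the entry of the pathway, fell, at a log2 fold change of -1.37 ± 0.34, a call lost without chow null replicate 1 or Western null replicates 1, 2 and 3 (-1.40 to -1.15).

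Sterol genes are classically driven by SREBP2, which binds sterol regulatory elements, with the CCAAT-binding factor NF-Y beside it. Promoter windows from RefSeq (build GRCm38.p6, 250 bases before to 50 after the gene start) were available for 16 of the 24 genes. CCAAT, searched on both strands, occurred in 15 of the 16 (93.8%) and in all 12 called genes that had a window. By comparison, 42.7% of tested genes and 41.1% of all 27025 genes with a window held it. TCACNCCAC, a sterol element, occurred in 1 of the 16, Hmgcs1, and in 1.48% of tested genes. The stretches that hold the matches in Hmgcs1 (chr13:119690101-119690330, plus strand), Msmo1 (chr8:64733609-64733758, minus strand), Idi1 (chr13:8885541-8885605, plus strand), Cyp51 (chr5:4104702-4104746, minus strand) and Nsdhl (chrX:72918392-72918520, plus strand) are shown because these genes were called lower. They read 5′ to 3′ on the strand of the gene. Capitals mark CCAAT, or ATTGG where it lies on the other strand, and in Hmgcs1 also the sterol element.
Hmgcs1: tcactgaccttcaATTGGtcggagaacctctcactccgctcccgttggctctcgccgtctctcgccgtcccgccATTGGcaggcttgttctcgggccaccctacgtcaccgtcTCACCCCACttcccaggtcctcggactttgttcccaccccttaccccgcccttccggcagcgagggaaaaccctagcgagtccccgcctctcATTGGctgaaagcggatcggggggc
Msmo1: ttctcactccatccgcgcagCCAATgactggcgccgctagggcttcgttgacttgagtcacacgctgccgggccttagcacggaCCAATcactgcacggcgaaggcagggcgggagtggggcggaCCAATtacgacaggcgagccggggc
Idi1: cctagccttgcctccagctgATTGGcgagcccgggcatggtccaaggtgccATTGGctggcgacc
Cyp51: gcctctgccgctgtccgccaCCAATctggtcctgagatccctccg
Nsdhl: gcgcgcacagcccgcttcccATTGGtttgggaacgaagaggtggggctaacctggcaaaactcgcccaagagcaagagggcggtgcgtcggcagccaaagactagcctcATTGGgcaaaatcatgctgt
In Msmo1 all 3 matches read CCAAT on the gene's own strand, whereas in the stretches printed for Idi1 and Nsdhl both matches lie on the other strand. The Nsdhl window holds 2 further matches after the gene start that are not printed, 1 on each strand. A match describes the letters only. Binding was not measured.

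Export and storage of cholesterol went up at a few points. Abcg1, which passes cholesterol to HDL, rose from 10.1, 11.3 and 11.4 CPM to 24.7, 51.5 and 34.1 CPM (log2 fold change 1.76 ± 0.35). Osbpl3, an oxysterol-binding protein, rose from 1.71, 1.69 and 3.22 CPM to 96.8, 89.6 and 94.2 CPM, by 5.28 ± 0.71. Soat1, which esterifies cholesterol, rose by 1.69 ± 0.47, a call lost without chow null replicate 3 or Western null replicate 2 (1.37 to 1.52). Of the 17 genes of this list these 3 were called higher (17.6%, against 6.44% of all genes), none fell, and 14 were positive.

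Of 30 tested genes of bile acid synthesis and transport 1 was higher (3.33%, against 6.44% of all genes) and 4 lower (13.3%, against 6.77%). The oxysterol and cholesterol hydroxylases Cyp7b1 and Cyp7a1 moved in opposite directions. Cyp7a1, the rate-limiting enzyme of the classical pathway, was at 18.6, 19.8 and 22 CPM in chow null and 95.3, 86.2 and 66.2 CPM in Western null (log2 fold change 2.03 ± 0.38, adjusted p = 0.0028). Cyp7b1, of the alternative pathway, was at 1325, 292 and 511 CPM and 43, 30 and 48.8 CPM (log2 fold change -4.12 ± 0.54, adjusted p = 0.000326). Every Western null library was above every chow library for the first and below for the second. For Cyp7b1, chow null replicate 1 was well above the other chow libraries. Slco1a1, a sinusoidal carrier of organic anions, fell from 309, 108 and 206 CPM to 17.3, 6.13 and 18.8 CPM. Nr5a2 (LRH-1), a nuclear receptor that drives Cyp7a1, fell, at a log2 fold change of -1.02 ± 0.22 unless Western null replicate 1 was left out (-0.85). Slc10a1, the main bile acid uptake carrier, was called lower (-0.97) in the full set and in 1 of the 6 repeats.

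**Figure D3:**
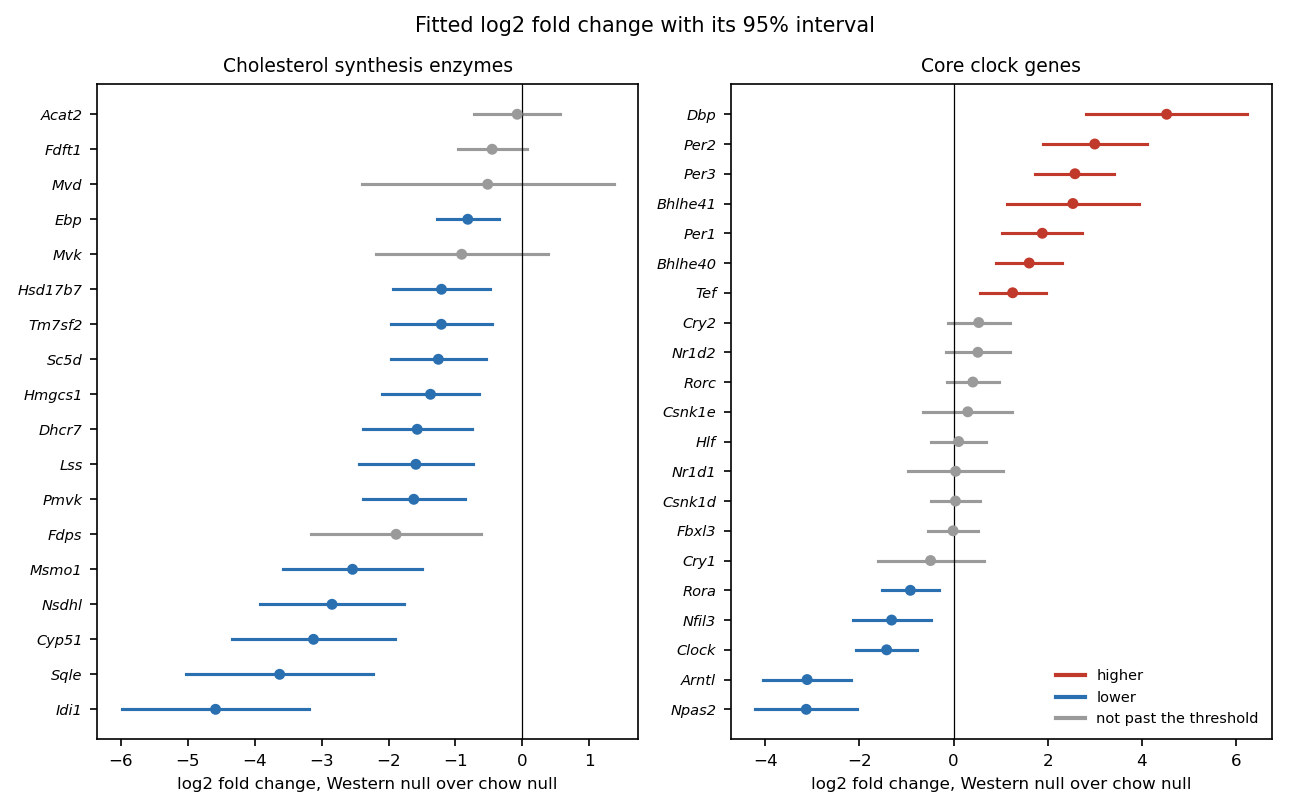
Points are fitted log2 fold changes of Western null over chow null and bars their 95% intervals, for 18 enzymes of cholesterol synthesis (left) and 21 core clock genes (right). Red marks genes past the threshold upward, blue downward and grey neither. Not every tested sterol enzyme is drawn. The points of the 18 that are lie below 0, and the clock genes spread to both sides, with Dbp highest and Npas2 and Arntl lowest.

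Sugar-handling genes changed in 1 direction. Of 32 tested genes of glycolysis, fructose use, the pentose phosphate pathway and glycogen, 12 rose and none fell (37.5% against 6.44%). Pgd, of the NADPH-producing pentose pathway, was at 19.4, 16.4 and 17.4 CPM in chow null and 40, 40.5 and 45.2 CPM in Western null (log2 fold change 1.23 ± 0.26, adjusted p = 0.00509). Akr1b3, an aldose reductase, rose by 1.61 ± 0.35 on the log2 scale. Pkm, the pyruvate kinase of non-hepatocyte cells, rose by 1.94 ± 0.44. Of the 12 calls 4 were made in each of the 6 repeats, and the list count ran from 4 to 11 over the repeats.

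Among 22 genes of gluconeogenesis and insulin signalling 3 were higher (13.6%) and 4 lower (18.2%), against 6.44% and 6.77% of all genes. G6pc, the glucose-6-phosphatase that releases glucose, fell from 268, 415 and 350.3 CPM to 132, 93.7 and 76.6 CPM (log2 fold change -1.78 ± 0.37, adjusted p = 0.00509). Irs1, an adaptor of the insulin receptor, fell from 72, 72.8 and 71.5 CPM to 29.6, 23.9 and 26.4 CPM, with little spread in either group. Pck2, the mitochondrial PEP carboxykinase, rose from 1.71, 1.13 and 1.48 CPM to 6.42, 5.79 and 7.18 CPM, while its cytosolic counterpart Pck1 was called lower (-0.96) in 1 of the 6 repeats. Pcx, the pyruvate carboxylase, was at 605 and 1280.1 CPM on average.

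Genes that the male growth hormone pattern keeps high in the liver were lower as a set. In male rodents growth hormone is released in pulses that activate STAT5 in hepatocytes. Of 29 tested male-biased genes, 24 fell (82.8%, against 6.77% of all genes) and none rose, with a median log2 fold change of -3.24. The count of lower members was 16 to 23 with 1 library left out and 24 with the span trend removed. Hsd3b5, a male-specific steroid dehydrogenase, was at 258, 230.4 and 197 CPM in chow null and 0, 1.7 and 0.449 CPM in Western null (log2 fold change -8.40 ± 0.56, adjusted p = 2.51e-07), and so almost silent on the Western diet. Susd4, a complement regulator, fell, at a log2 fold change of -3.73 ± 0.50 and Slc22a28, an organic anion transporter of male liver, at -4.43 ± 0.60. C8b, a chain of complement C8 with male-biased expression, fell from 482, 277 and 252 CPM to 29.6, 41.2 and 69.9 CPM. Elovl3, a fatty acid elongase that follows both sex and the clock, fell, at a log2 fold change of -4.40 ± 0.67, and was chosen for mention after its values were seen.

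The Mup genes lie side by side on chromosome 4 and are near-identical, so reads may have been split among them. Mup1, Mup11, Mup12, Mup22 and Mup14 were neighbours that were all called lower. Mup12 had 348 counts over the chow libraries and 2 over the Western null libraries, a ratio of 127-fold with a 95% counting interval of 35 to 1050. Chow null replicate 1 held far more Mup RNA than the other chow libraries: Mup11 was at 402, 35 and 64.8 CPM in chow null and 1.48, 0 and 0.629 CPM in Western null. Mup1 had 385 and 2 counts, 141-fold with a 95% counting interval of 38.7 to 1170. The call of Mup11 was lost without Western null replicates 2 and 3 (-8.05 to -7.64). Mup14 kept its call in 3 of the 6 repeats, Mup1 in 2 and Mup22 in 4.

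Female-biased genes went both ways. Of 17 tested, 5 rose (29.4%) and 1 fell (5.88%), against 6.44% and 6.77% of all genes, and 10 had positive log2 fold changes. Cyp2a4, a testosterone hydroxylase of female liver, had 2 counts over the chow libraries and 188 over the Western null libraries, 129-fold with a 95% counting interval of 35.1 to 1070. Ntrk2, the receptor for brain-derived neurotrophic factor, went from 0.457, 0 and 0.174 CPM to 12.8, 16.4 and 17.6 CPM. Cyp2c40 went the other way, with 82 counts in chow null and 1 in Western null, 60-fold with a 95% counting interval of 10.5 to 2400. Fmo2 rose by 2.19 ± 0.48 and Cyp2a22 by 5.65 ± 1.40, the first call lost without chow null replicate 3 (1.90) and the second without chow null replicates 1, 2 and 3 or Western null replicate 1 (5.35 to 5.89).

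Of 24 genes of the growth hormone and IGF axis 4 were higher (16.7%) and 5 lower (20.8%), against 6.44% and 6.77% of all genes. Ghr, the growth hormone receptor, was at 836, 383 and 846 CPM in chow null and 101, 148 and 163 CPM in Western null (log2 fold change -2.32 ± 0.35, adjusted p = 0.000588), with all Western null libraries below all chow libraries. Lifr, the receptor for leukaemia inhibitory factor, fell, at a log2 fold change of -1.48 ± 0.29. Igf1, the main hormone that growth hormone induces in liver, had a log2 fold change of -1.29 with an interval of -2.22 to -0.35 and an adjusted p of 0.0649, short of the threshold. Stat5b fell, at a log2 fold change of -0.67 ± 0.21 in the full set, and the call was made in 0 of the 6 repeats. Bcl6, a repressor of female-biased genes in male liver, was called lower (-1.29) in 2 of the repeats. Igfbp7, a binding protein of insulin-like growth factors, rose from 29.4, 40.7 and 40.2 CPM to 161, 144 and 120.4 CPM. TTCNNNGAA, the motif that STAT5 binds, searched on both strands, was found in 3 of 20 male-biased promoters (15%), of which 2 were of the 18 called genes with a window, against 8.5% of tested genes.

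Plasma protein genes were called lower more often than higher. Of 49 tested complement, coagulation and carrier genes 11 were lower (22.4%) and none higher, and of 31 acute phase genes 7 were lower (22.6%) and 2 higher, against 6.77% and 6.44% of all genes. C6 and C8b, among these 11, also belong to the male-biased list, and C6 was called in 0 of the 6 repeats. The acute phase genes are short, and their median was -0.33 where tested genes of like span had 0.17. The summed acute phase level was 45309.6, 49816 and 37939.8 CPM in chow null and 23566, 22638 and 27188 CPM in Western null. Serpinf2, the plasmin inhibitor, fell, at a log2 fold change of -1.40 ± 0.24. On chromosome 12 a run of 6 neighbouring tested genes was lower, from Serpina1d to Serpina11 across 226 kb. Within it Serpina1e fell most (-7.38) and Serpina1c, Serpina1d and Serpina1a at -1.76 ± 0.25, -1.54 ± 0.27 and -1.25 ± 0.22, whereas Serpina11 (chow null replicates 2 and 3 or Western null replicates 1 and 2, -0.86 to -0.76) and Gm8893 (chow null replicate 3 or Western null replicates 2 and 3, -2.48 to -2.02) lost their calls without the libraries given. Copies of this gene differ little, so the split of reads among them is uncertain. A second run, on chromosome 6, held the murinoglobulin genes, protease inhibitors of mouse plasma. Its pseudogene Mug-ps1 fell, at a log2 fold change of -2.56 ± 0.28 and the predicted gene Gm10319 at -2.24 ± 0.27, while Mug2 (chow null replicate 3 or Western null replicates 1 and 2, -0.99 to -0.91) kept its call in 3 repeats and Mug1 in 1.

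Within the acute phase list the direction was mixed. Saa3, the serum amyloid A of macrophages and stressed liver, rose from 1.83, 1.69 and 2.26 CPM to 8.89, 8.86 and 11.9 CPM. Lcn2, a siderophore-binding protein that rises in injured liver, was at 10.9, 13 and 19.1 CPM against 96.3, 108 and 87.3 CPM, fully apart but not called (log2 fold change 2.74 ± 1.43, adjusted p = 0.248). Its error takes in the spread of all 12 libraries of the series. Hamp, the iron hormone hepcidin, was at 325, 546 and 547 CPM and 59.7, 189 and 171 CPM and lost its call without chow null replicate 3 (-1.64 there, -1.75 with all libraries). Fgb behaved like the other fibrinogen chains (-1.72 ± 0.39) but lost its call without Western null replicate 2 (-1.65).

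Among 34 cytochrome P450 genes of families 1 to 3 and their regulators 10 were lower (29.4%, against 6.77% of all genes) and 2 higher (5.88%, near the 6.44% of all genes). The Cyp2c genes on chromosome 19 formed a run of 4 lower neighbours across 347 kb: Cyp2c40, Cyp2c37, Cyp2c54 and Cyp2c50. Cyp2c54 fell from 151, 168 and 194 CPM to 21.2, 22.8 and 30.4 CPM (log2 fold change -2.77 ± 0.35, adjusted p = 0.000155). Cyp2c50 lost its call without Western null replicate 2 (-1.38) and Cyp2c37 kept it in 0 of the 6 repeats. Outside the run, Cyp2c29 fell, at a log2 fold change of -1.60 ± 0.31, Cyp2c23, an epoxygenase of arachidonic acid, at -1.60 ± 0.31 and Cyp2j9 at -3.05 ± 0.50. Cyp2a5, a coumarin hydroxylase that rises in injured liver, went up from 138, 217 and 172 CPM to 379, 543 and 677 CPM. Cyp2a5 and Cyp2a4 are near-identical, so their reads may be shared. Cyp1a2, a perivenous enzyme, was at 402, 860 and 613 CPM and 128, 167 and 309 CPM and kept its call in 2 of 6 repeats.

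Of 41 glutathione and NRF2 target genes 10 were higher (24.4%, against 6.44% of all genes), 3 lower (7.32%, against 6.77%) and 28 not called, and 10 of these 13 calls were made in all repeats. Gpx4, which reduces lipid peroxides in membranes, was at 70.3, 58.7 and 52.4 CPM in chow null and 192, 222 and 218 CPM in Western null (log2 fold change 1.80 ± 0.24, adjusted p = 0.000252). Gsta1 had no count in chow null and 82 over the Western null libraries, at least 37.4-fold higher against a floor of 3 counts over the chow libraries. Gstm3 rose by 2.32 ± 0.36, Mgst3 by 1.77 ± 0.31 and Cbr3, a carbonyl reductase, by 4.23 ± 0.69. Nqo1, the quinone reductase most used to read NRF2 activity, rose from 2.74, 0.565 and 4.18 CPM to 12.3, 12.6 and 12 CPM, and is named here with its values in view. Gstp1 and Gstp2, which are male-biased in mouse liver, fell, at a log2 fold change of -1.90 ± 0.34 and -2.93 ± 0.78, and Osgin1 at -2.03 ± 0.40, all 3 likewise chosen after their values were seen. The call of Gstp2 was made in 1 of the 6 repeats. The NRF2 element TGACNNNGC was in 10 of 36 windows of the list (27.8%), against 16.7% of tested genes, but in 1 of the 13 windows of called genes.

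Of the conjugating enzymes, carboxylesterases and aldehyde oxidising enzymes, 4 of 42 rose and 3 fell, shares near those of all genes. Ces3b, a carboxylesterase, fell from 402, 443 and 362 CPM to 57.3, 96.4 and 110.3 CPM, Ugt2b1, a glucuronosyltransferase, at -1.25 ± 0.24 and Aox3, an aldehyde oxidase, at -1.31 ± 0.27. Cbr1 rose by 1.29 ± 0.27. Aldh3a2, which oxidises fatty aldehydes, was at 220, 235 and 202 CPM against 1271, 862 and 967 CPM and just missed the threshold (log2 fold change 2.24 ± 0.68, adjusted p = 0.0515).

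Genes with a place along the lobule were called lower more often than higher. Of 47 periportal urea cycle and amino acid genes 12 were lower (25.5%) and 1 higher, and of 22 pericentral genes 4 were lower (18.2%) and none higher, against 6.77% and 6.44% of all genes. Of the pericentral genes 10 had positive log2 fold changes, and 1 of the 4 calls was made in all repeats. Hal, the histidine ammonia-lyase, was at 299, 378 and 365 CPM in chow null and 49.9, 137 and 90.2 CPM in Western null (log2 fold change -1.90 ± 0.31, adjusted p = 0.000935). Etnppl, which degrades phosphoethanolamine, fell, at a log2 fold change of -2.28 ± 0.38 and Kynu, of tryptophan breakdown, at -1.88 ± 0.35. Agxt (Western null replicate 1, -1.17) and Cbs (Western null replicates 1 and 2, -1.07 to -0.99), enzymes of glyoxylate and of sulphur amino acids, were lower until the library named was left out. At the central vein, Znrf3, a feedback inhibitor of Wnt signalling, fell, at a log2 fold change of -1.27 ± 0.24. Axin2 and Lgr5, also Wnt targets, had log2 fold changes of -0.93 and -1.48, but were called in 0 and 1 of the 6 repeats.

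Hepatocyte transcription factors that were called all fell: 8 of 33 were lower (24.2%, against 6.77% of all genes) and none higher. Their median was -0.45, against -0.08 for genes of like span. With the span trend removed 7 were lower, and with 1 library left out 3 to 8. Prox1, a homeobox factor of hepatocytes, fell from 169.6, 248 and 234 CPM to 88.4, 81.8 and 113 CPM and Tcf7l2, the Wnt-responsive factor, from 72, 46.3 and 139 CPM to 24.7, 28.6 and 36 CPM. Thrb, the thyroid hormone receptor of liver, was at 212, 167 and 301 CPM against 67.6, 105 and 107 CPM and lost its call without chow null replicate 3 (-1.03). Hnf4a, the factor most tied to hepatocyte identity, fell, at a log2 fold change of -0.77 ± 0.24 in the full set and kept its call in 1 of 6 repeats.

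Genes of lipid-associated macrophages were higher as a set. These are the cells that surround dying, fat-laden hepatocytes. Of 18 tested genes 12 rose (66.7%, against 6.44% of all genes) and none fell, and all 12 calls were made in all repeats. Gpnmb, a lysosomal glycoprotein of these cells, was at 0.457, 0 and 0.0871 CPM in chow null and 43, 48 and 51.9 CPM in Western null (log2 fold change 7.59 ± 0.55, adjusted p = 6.65e-07). Mmp12, the macrophage elastase, had 1 count over the chow libraries and 409 over the Western null libraries, a ratio of 559-fold with a 95% counting interval of 99.8 to 22100. Trem2, the lipid-sensing receptor that defines the state, had 3 and 286 counts, 130-fold with a 95% counting interval of 44.2 to 636. Cd63, a tetraspanin of late endosomes, rose from 1.37, 1.13 and 1.22 CPM to 27.2, 32.4 and 28.1 CPM, and Spp1, osteopontin, which injured bile duct cells also make, from 12.5, 3.39 and 14.6 CPM to 199, 88.3 and 167 CPM. In each of these genes all Western null libraries lay far above all chow libraries. The summed level of the 5 markers Trem2, Gpnmb, Spp1, Cd9 and Mmp12 was 26.7, 9.03 and 25.4 CPM in chow null and 319, 204 and 296 CPM in Western null.

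Among 17 tested Kupffer cell genes 4 were higher (23.5%) and 2 lower (11.8%), against 6.44% and 6.77% of all genes. The summed level of 5 Kupffer markers (Clec4f, Vsig4, Timd4, Cd5l and Marco) was 178, 144 and 83 CPM in chow null and 137, 248 and 107 CPM in Western null, overlapping ranges, with 1 of the 5 listed at 0 throughout. Timd4, a phosphatidylserine receptor of long-lived Kupffer cells, fell, at a log2 fold change of -2.31 ± 0.63, a call lost without chow null replicate 1 or Western null replicates 2 and 3 (-2.25 to -1.36). Its groups overlapped, at 13.8, 2.26 and 4.79 CPM in chow null and 2.96, 1.36 and 0.988 CPM in Western null. Cd163, the haemoglobin scavenger receptor, was at 10.4, 20.9 and 7.57 CPM and 1.97, 3.75 and 1.98 CPM and lost its call without Western null replicates 1 and 3 (-2.19 to -2.04). Clec4f, the most specific Kupffer marker, was at 67, 116 and 62.5 CPM against 120, 224 and 93.1 CPM with an interval of 0.05 to 1.64. The complement C1q genes, which all liver macrophages express, stood higher. C1qb was at 37.7, 64.4 and 32.9 CPM and 117, 196 and 114 CPM (log2 fold change 1.69 ± 0.41), and C1qa and C1qc had log2 fold changes of 1.23 and 1.58. Each C1q gene lost its call in some repeats, with 3, 2 and 1 of 6 kept. They lie beside Ephb2 on chromosome 4, a run of 4 higher genes in which Ephb2, an ephrin receptor, went from 0.457, 2.82 and 0.609 CPM to 43.4, 37.1 and 23.3 CPM (log2 fold change 5.36 ± 0.53).

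General leukocyte genes were higher as a set: 32 of 32 had positive log2 fold changes, with a median of 1.51. Of these, 15 were called higher (46.9%, against 6.44% of all genes), and 6 to 11 with 1 library left out. Itgax, the integrin CD11c of dendritic cells and activated macrophages, was at 0.457, 1.13 and 0.784 CPM in chow null and 19.3, 15.7 and 14.1 CPM in Western null (log2 fold change 4.51 ± 0.54, adjusted p = 9.07e-05). Fcgr3, an IgG receptor, rose by 2.26 ± 0.45, Cyba, a subunit of the phagocyte oxidase, by 2.14 ± 0.35, Mpeg1, a perforin of macrophages, by 1.66 ± 0.36 and Coro1a, an actin regulator of leukocytes, by 1.97 ± 0.44. Irf8, a factor of monocytes and dendritic cells, rose from 4.34, 6.78 and 5.14 CPM to 31.6, 25.9 and 14.5 CPM. Of 13 dendritic cell genes 5 were tested, and Irf8, Fscn1 and Cd83 were the 3 called higher (60%, against 6.44% of all genes). Fscn1, an actin-bundling protein, and Cd83, both also found in other cells, rose by 2.30 ± 0.48 and 2.45 ± 0.54. Zbtb46 and Batf3, factors of the dendritic lineage, were not called (0.03 and 0.94).

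Of 17 antigen presentation genes 7 rose (41.2%, against 6.44% of all genes), among them MHC class II genes, and none fell. Their median was 0.86, where tested genes of like span had 0.20. H2-Eb1 was at 9.6, 12.4 and 18 CPM in chow null and 104, 131 and 108 CPM in Western null (log2 fold change 3.08 ± 0.34, adjusted p = 4.99e-05). H2-Aa rose by 2.41 ± 0.39, H2-Ab1 by 2.46 ± 0.41 and Cd74, the class II invariant chain, by 2.35 ± 0.40. For H2-Aa, H2-Ab1 and Cd74 the chow libraries themselves spread widely, and replicate 2 was the high one each time. Of the class I heavy chains, H2-K1 overlapped between groups with an interval of -0.42 to 0.70, and H2-D1 was apart upward but not called, with an interval of 0.01 to 1.03. The difference between the classes was not tested.

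Lymphocyte and neutrophil genes were few enough in counts to limit what could be tested. The summed level of 4 T and NK cell markers was 1.71, 2.82 and 1.22 CPM in chow null and 0.987, 2.39 and 1.62 CPM in Western null, that of 3 B cell markers reached 1.14 and 3.95 CPM at most, and none of these 7 markers was tested. Of the 7, Trac and Ms4a1 lie inside another annotated gene and are listed at 0 by the way reads were counted, so their 0 is no measure of their level, and the other 5 were below the filter. Of 6 tested neutrophil genes none was called and none had an unadjusted p under 0.05, and only Lcn2, which hepatocytes also make, was apart between groups. Of the fuller T and NK cell list 2 genes were tested, and Lck, a T cell kinase, had a log2 fold change of 1.79 that was not called (adjusted p = 0.104). Among 28 interferon-response genes 4 rose (14.3%, against 6.44% of all genes), of which Ifi27l2a (2.72 ± 0.54) kept its call in all repeats. Of the secreted signals, Gdf15, a stress hormone that reduces appetite, rose from 4.8, 2.82 and 3.22 CPM to 20.7, 13.3 and 21 CPM. Cxcl12 was called lower (-0.68) in 0 of the repeats. The chemokine Ccl2 had 10 counts over the chow libraries and 23 over the Western null libraries, too few for the test.

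**Figure D4:**
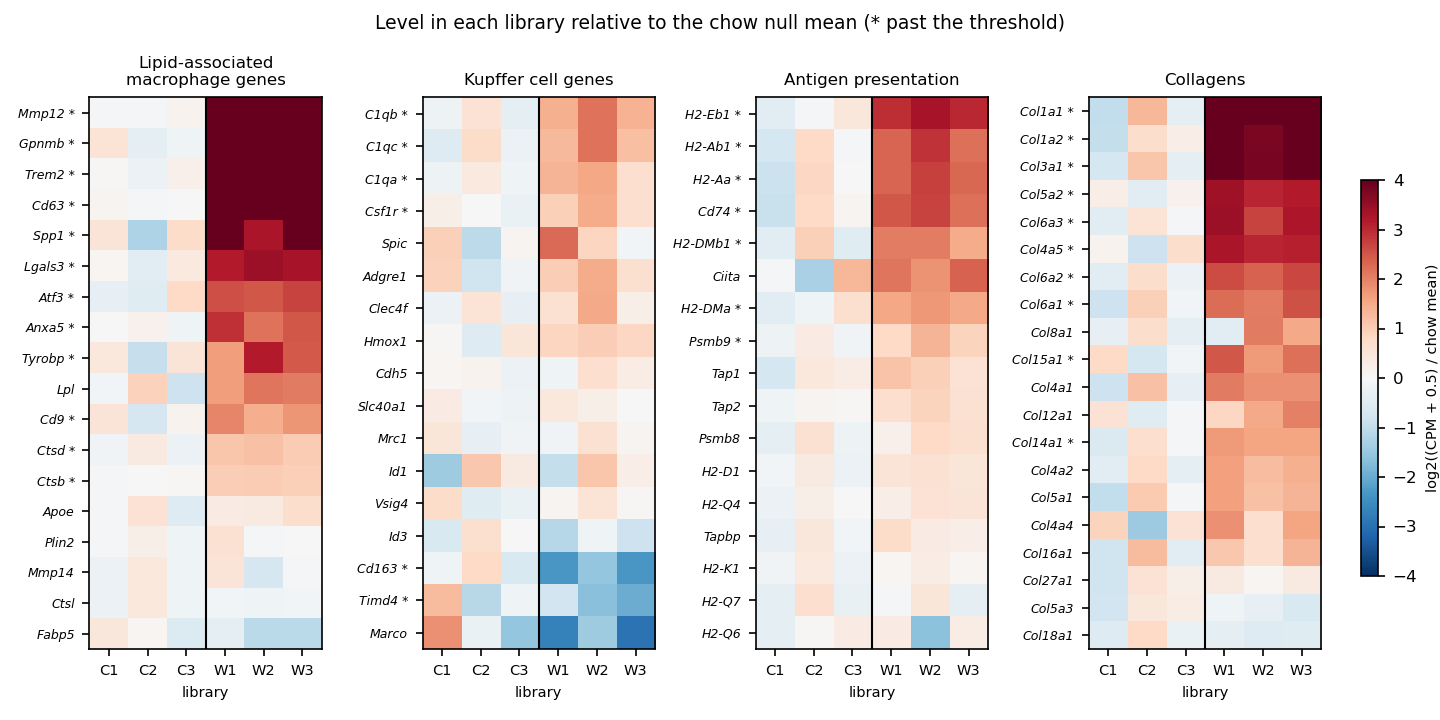
Colour shows log2 CPM (offset 0.5) of each library minus the chow null mean for the tested members of 4 gene lists, red above and blue below, with colours saturated at 4 log2 units. Columns C1 to C3 are chow null and W1 to W3 Western null replicates, and asterisks mark genes past the threshold. Of the lipid-associated macrophage genes 12 of 18 and of the collagens 10 of 20 carry an asterisk, and Kupffer cell genes go both ways.

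Many matrix genes were higher. Of 20 tested collagens 10 rose and none fell, and of 51 other matrix and remodelling genes 30 rose and none fell, 50% and 58.8% against 6.44% of all genes. Collagen genes are long (median span 114 kb), and tested genes of like span had a median log2 fold change of -0.27 where the collagens had 1.87. Col3a1, a fibrillar collagen of scars, was at 20.2, 72.3 and 25 CPM in chow null and 591, 467 and 542 CPM in Western null (log2 fold change 3.82 ± 0.65, adjusted p = 0.00331). Col1a2 rose from 6.28, 20.9 and 15.2 CPM to 262, 179 and 216 CPM. For both, chow null replicate 2 was the highest chow library and still far below every Western null library. Col1a1 had the largest fitted change of the list (5.21 ± 0.91) and is named here after its values were seen. Col6a3, Col5a2, Col4a5 and Col6a2 rose by 3.20 ± 0.37, 3.24 ± 0.46, 3.10 ± 0.56 and 2.71 ± 0.47.

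Among the other matrix genes, Serpinh1, the collagen chaperone HSP47, rose from 4.69, 9.03 and 5.83 CPM to 47.9, 36.5 and 35.5 CPM (log2 fold change 2.71 ± 0.34, adjusted p = 0.00015). Nid1, of basement membranes, rose by 2.12 ± 0.25, Fbn1, a microfibril protein, by 2.13 ± 0.27, Fbln2 by 3.02 ± 0.55 and Thbs2, a matricellular protein, by 2.85 ± 0.42. Thbs2 varied among Western null libraries (9.87, 13.6 and 25.4 CPM, against 2.29, 1.69 and 2.61 CPM in chow null). Ltbp1 and Ltbp3, which tether latent TGF-beta in the matrix, rose by 1.75 ± 0.36 and 2.34 ± 0.47, while Tgfb1 itself had an interval of -0.35 to 1.15.

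Among 17 stellate cell, portal fibroblast and smooth muscle genes 3 were higher (17.6%) and 1 lower (5.88%), against 6.44% and 6.77% of all genes. Pdgfrb, the PDGF receptor of stellate cells, was at 7.31, 19.2 and 13 CPM in chow null and 47.9, 29 and 41.5 CPM in Western null (log2 fold change 1.66 ± 0.34, adjusted p = 0.00518). Cygb, a globin of stellate cells, rose by 1.65 ± 0.34. Acta2, the smooth muscle actin of myofibroblasts, was low, at 1.03, 3.95 and 1.31 CPM and 5.92, 3.07 and 5.12 CPM, and its interval of -0.15 to 3.13 included 0. The summed level of 5 stellate markers was 182, 238 and 246 CPM in chow null and 453, 335 and 394 CPM in Western null, with no overlap and 1 of the 5 listed at 0. Hhip, an inhibitor of hedgehog signalling, was the only lower member (-2.28, kept in 1 of 6 repeats).

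Among 27 endothelial genes 6 were higher (22.2%, against 6.44% of all genes) and none lower. Together, 5 endothelial markers summed to 228, 184 and 235 CPM in chow null and 229, 313 and 256 CPM in Western null, which overlap. Of these markers Stab2, a scavenger receptor of sinusoids, and Ptprb, a phosphatase of endothelium, were not called (log2 fold changes 0.22 and 0.01). Vcam1, an adhesion molecule for leukocytes, was at 7.54, 7.34 and 9.84 CPM in chow null and 36.5, 40.9 and 41.4 CPM in Western null. Its log2 fold change was 2.24 ± 0.34 (adjusted p = 0.000627). Vwf, the von Willebrand factor of large vessels, and Lyve1, of sinusoidal and lymphatic endothelium, rose by 1.69 ± 0.37 and 2.15 ± 0.43. Of 9 tested bile duct and ductular genes 4 were higher (44.4%, against 6.44% of all genes). The 5 bile duct markers summed to 12.8, 28.8 and 7.05 CPM in chow null and 24.7, 11.2 and 24.7 CPM in Western null, which also overlap. Sox9, a factor of bile duct cells, and Krt7, a duct keratin, were not called (-0.72 and 0.60). Apart from Spp1 the called genes were low and lost their calls in some repeats. Tspan8 lost its call without chow null replicate 3 (3.21 there, 3.22 with all libraries). Prom1 lost its call without chow null replicates 1 and 3 or Western null replicate 1 (2.24 to 2.68), and Epcam kept its call in 1 of 6 repeats. Krt19, the keratin of bile ducts, was below the filter, with 10 counts over the chow libraries and 68 over the Western null libraries. Mesothelial markers summed to at most 0.958 CPM in chow null and 2.96 CPM in Western null.

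Calcium-dependent membrane proteins and carbohydrate-binding proteins of activated cells were higher in 14 of 23 cases (60.9%, against 6.44% of all genes) and lower in none. Anxa5, which binds exposed phosphatidylserine, was at 44.1, 49.1 and 39.3 CPM in chow null and 340.2, 201 and 249.8 CPM in Western null (log2 fold change 2.58 ± 0.26, adjusted p = 1.42e-05). Lgals3, a galectin of macrophages, rose by 3.36 ± 0.40 and Lgals1 by 3.88 ± 0.45. S100a11 and S100a10 rose by 3.35 ± 0.42 and 1.88 ± 0.26. In the cytoskeleton 14 of 35 genes rose (40%, against 6.44% of all genes) and none fell. The median was 1.05, against 0.13 for genes of like span. Krt8, a keratin of hepatocytes and bile ducts that aggregates in steatohepatitis, went from 167, 204 and 185 CPM to 586, 539 and 737 CPM. Tagln2, Capg, Vim and Flna, actin-binding or filament proteins found mainly outside hepatocytes, rose by 2.47 ± 0.33, 3.12 ± 0.46, 1.99 ± 0.34 and 1.72 ± 0.26.

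Of 49 lysosomal genes 14 were higher (28.6%, against 6.44% of all genes), none lower and 35 not called, and 8 of the 14 calls were made in all repeats. Psap, the precursor of the saposins that help degrade sphingolipids, was at 334, 495 and 336 CPM in chow null and 902, 986 and 925 CPM in Western null (log2 fold change 1.27 ± 0.26, adjusted p = 0.005). Ctsb, a cathepsin protease, was nearly constant within groups, at 305, 316 and 322 CPM and 625, 635 and 614 CPM (log2 fold change 0.99 ± 0.20). Gusb, the beta-glucuronidase, rose by 1.42 ± 0.23 and Cd68, a lysosomal protein of macrophages, by 2.15 ± 0.42. Ctsd, another cathepsin, rose by 1.08 ± 0.22. TCACGTGA, the palindrome at the core of the element bound by TFEB, occurred in 5 of 39 lysosomal promoter windows (12.8%), of which 2 were of the 12 called genes with a window, and in 2.2% of those of tested genes. That of Ctsd (chr7:142387899-142387946, minus strand) is shown as a called gene that carries it, with the palindrome in capitals.
Ctsd: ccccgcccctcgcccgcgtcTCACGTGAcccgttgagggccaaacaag

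Of 26 tested cell cycle genes 10 rose (38.5%, against 6.44% of all genes) and none fell. Ccnd1, cyclin D1, was at 21.5, 14.1 and 16 CPM in chow null and 44.4, 68.1 and 60.7 CPM in Western null (log2 fold change 1.73 ± 0.26, adjusted p = 0.000614), and its partner kinase Cdk4 rose by 1.16 ± 0.27. Among genes of dividing cells, Mki67 (chow null replicate 3 or Western null replicate 1, 1.80 to 1.88), Mcm6 (chow null replicate 3, 1.58) and Top2a (chow null replicates 1 and 3 or Western null replicate 2, 2.35 to 2.76) lost their calls without the libraries given, from 2.05, 1.75 and 2.86 with all 6. A further 13 genes of the list were below the filter. Over the chow and Western null libraries Birc5 had 3 and 20 counts, Plk1 2 and 15 and Ccnb1 0 and 14, whereas Aurkb had 5 and 3 and Cdkn3 6 and 2. Of the p53 targets 5 of 25 rose (20%, against 6.44% of all genes). Ccng1 rose from 27.4, 22.6 and 22.3 CPM to 54.8, 56.6 and 45.7 CPM and Phlda3 by 3.44 ± 0.78. Cdkn1a, the cell cycle inhibitor p21, was at 4.57, 10.7 and 5.31 CPM and 61.2, 21.5 and 27.6 CPM and lost its call without chow null replicates 1 and 3 or Western null replicate 1 (1.99 to 2.38). Ly6d, a surface protein found on hepatocytes of injured liver, was nearly absent on chow (0.457, 0 and 0.261 CPM) and at 72.1, 35.1 and 42.8 CPM on the Western diet, a log2 fold change of 7.21 ± 0.61 (adjusted p = 3.26e-06).

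In the ER stress and integrated stress response list 2 of 33 genes were higher and 2 lower (6.06% each way), near the shares of all genes. Atf3, an early stress factor, rose from 0.686, 0.565 and 2.09 CPM to 8.39, 7.84 and 9.07 CPM. Trib3 was called higher (2.20) in 1 of 6 repeats. Of 25 chaperones 5 rose (20%, against 6.44% of all genes), among them Hspb1, a small heat shock protein (1.90 ± 0.33). Cytosolic ribosomal protein genes were shifted slightly and together: 69 of 71 were positive, with a median of 0.52, where genes of like span had 0.28. Of the 8 called higher (11.3%, against 6.44% of all genes), Rps19 (1.07 ± 0.23) was called in every repeat.

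The clock genes moved in both directions. The daily clock of hepatocytes runs on CLOCK, NPAS2 and BMAL1 (Arntl), which drive the Per and Cry repressors and the output factors Dbp and Tef. Among 21 tested core genes 7 rose and 5 fell, against 6.44% and 6.77% of all genes, and 8 of the 12 calls were made in all repeats. Arntl was at 32.1, 30.5 and 32 CPM in chow null and 3.46, 4.77 and 3.05 CPM in Western null (log2 fold change -3.11 ± 0.44, adjusted p = 0.000348). Npas2 fell with it, from 7.77, 11.9 and 8.53 CPM to 0.494, 1.7 and 0.898 CPM. On the other side Dbp rose from 2.06, 5.08 and 4.27 CPM to 71.6, 93.4 and 80.4 CPM (log2 fold change 4.53 ± 0.78, adjusted p = 0.00414). Per2 and Per3 rose by 3.00 ± 0.52 and 2.58 ± 0.40, and Per1 by 1.88 ± 0.40. Tef rose by 1.25 ± 0.33, a call lost without chow null replicates 1 and 3 or Western null replicates 2 and 3 (0.98 to 1.34). Nr1d1 (REV-ERBalpha), the repressor of Arntl, was at 34.1, 49.7 and 53.8 CPM and 44.9, 43.3 and 52.5 CPM, with an interval of -0.96 to 1.05. Within each diet the libraries lay close together for Arntl, and both Arntl and Dbp were fully apart between diets.

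Of 25 clock output genes 10 rose (40%) and 2 fell (8%), against 6.44% and 6.77% of all genes. Usp2, a deubiquitinase, rose by 4.88 ± 0.47 and Wee1, the mitotic kinase under clock control, from 0.8, 0 and 0.609 CPM to 10.9, 17.4 and 16.7 CPM. Rgs16, a regulator of G-protein signalling that follows feeding, rose from 0.457, 1.69 and 5.4 CPM to 139, 128 and 153 CPM (5.62 ± 0.89), and was singled out after its values were seen. Avpr1a, the hepatic vasopressin receptor, fell from 50.7, 55.9 and 37 CPM to 2.96, 6.13 and 3.41 CPM. Alas1 and Cyp7a1, given above, belong to this list as well. The labels do not give the hour at which either group was sampled, so a shift of phase and a change of level cannot be told apart.

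E-boxes (CACGTG) occurred in 4 of 16 core clock promoter windows (25%), in 5 of 20 clock output windows (25%) and in 11.7% of those of tested genes. Of the windows of called genes 3 of 10 in the core list and 1 of 7 in the output list held it. TTANGTAA, the D-box that DBP and TEF bind, occurred in 1 of 16 core windows, Per3, in 0 of 20 output windows and in 2% of tested genes. The stretch of Per3 (chr4:151044796-151044890, minus strand) with 2 D-boxes is shown, together with the E-boxes of Per1 (chr11:69098763-69098808, plus strand) and of both annotated starts of Tef (chr15:81802526-81802571, plus strand and chr15:81811256-81811301, plus strand), all from genes that rose. Capitals mark the motif.
Per3: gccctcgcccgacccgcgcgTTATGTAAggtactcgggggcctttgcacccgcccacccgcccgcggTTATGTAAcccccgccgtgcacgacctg
Per1: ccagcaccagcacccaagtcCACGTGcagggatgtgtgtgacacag
Tef: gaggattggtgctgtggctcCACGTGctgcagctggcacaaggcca
Tef: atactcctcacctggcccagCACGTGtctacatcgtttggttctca
The D-boxes of Per3 start 205 and 158 bases before its start and read the same, TTATGTAA. The E-box of Per1 starts 166 bases before 1 of the 2 annotated starts of that gene.

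Smaller groups held single strong changes. In iron and metal handling Slc30a10, a manganese exporter, fell, at a log2 fold change of -1.79 ± 0.28, and Tfrc, the transferrin receptor, was called higher (1.32) in 2 of 6 repeats. Of the retinoid genes Rdh11, a retinol dehydrogenase, fell from 30.7, 25.4 and 30.5 CPM to 6.42, 12.6 and 7.81 CPM and Cyp26a1, which degrades retinoic acid, from 11.3, 24.8 and 20.2 CPM to 0.987, 2.73 and 6.11 CPM. Smpd3, a neutral sphingomyelinase, rose from 0.914, 2.26 and 1.39 CPM to 20.2, 34.8 and 21.5 CPM. Of 19 peroxisome biogenesis genes 1 was called higher (5.26%, near the 6.44% of all genes) and none lower (against 6.77%). Uap1l1 and Haus8 lie in runs of 4 higher neighbours on chromosomes 2 and 8. Uap1l1 went from 3.54, 2.26 and 3.66 CPM to 59.2, 49.7 and 55.5 CPM (adjusted p = 5.82e-06) and Haus8, a subunit of augmin, from 1.83, 2.26 and 1.39 CPM to 40.5, 33.1 and 34.2 CPM (adjusted p = 9.45e-07). Npdc1, in the run of Uap1l1, rose by 3.25 ± 0.49.

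**Figure D5:**
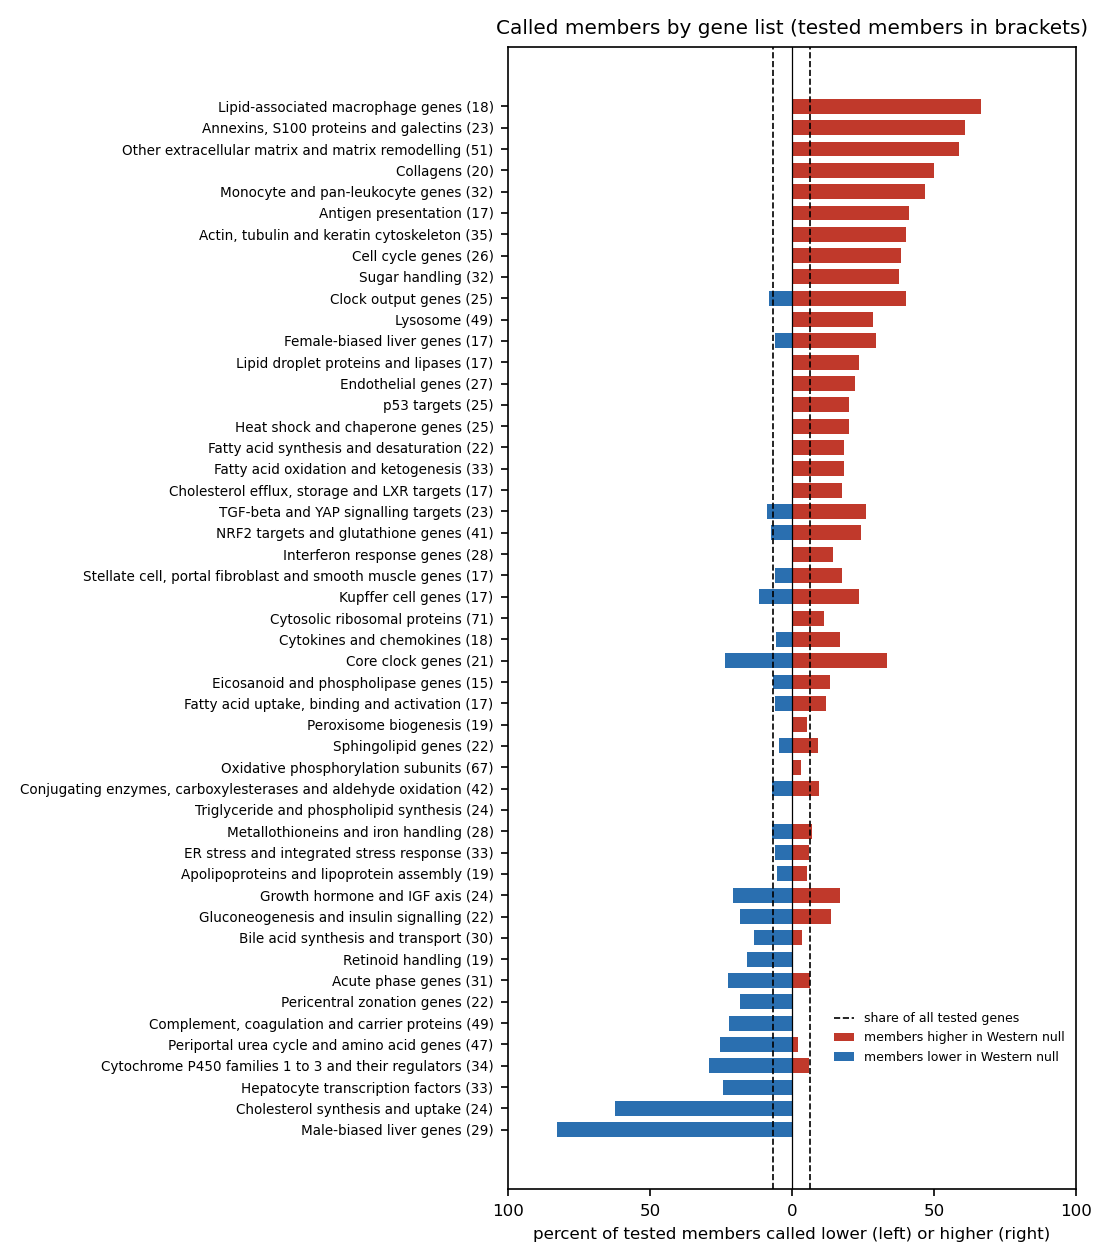
Bars give the percent of tested members called higher (right, red) or lower (left, blue) in Western null for the gene lists with at least 15 tested members, whose number stands in brackets. Dashed lines mark the shares of all 11934 tested genes, 6.44% and 6.77%. Lipid-associated macrophage genes lead upward with 66.7% and male-biased liver genes downward with 82.8%.

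The median 95% interval over all tested genes reached 0.72 log2 units to either side of the fitted value. Only 60 genes (0.503%) had an interval wholly within 0.5 log2 units of 0, so a larger change lies outside it. They were chosen by this bound and their levels are a description. Among the most abundant were Nedd4, a ubiquitin ligase, at 291, 268 and 262 CPM in chow null and 302, 281 and 276 CPM in Western null, and Nbr1, an autophagy receptor. Sod2, the mitochondrial superoxide dismutase, and Gsr, the glutathione reductase, were among them, with intervals of -0.49 to 0.37 and -0.44 to 0.46.

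Some called genes varied widely among the Western null libraries. Gm40376, a predicted gene, was at 2.96, 8.86 and 16.2 CPM there and 0.229, 0 and 0.609 CPM in chow null, and its call was made in all repeats. Rab34 read 14.3, 2.73 and 6.83 CPM, Kbtbd11 11.4, 1.02 and 10.5 CPM and Them6 9.38, 1.7 and 7.01 CPM in Western null, with replicate 2 lowest each time, and kept their calls in 4, 2 and 1 of the 6 repeats. Slc22a7, an organic anion transporter, was lower on the Western diet at 0, 4.09 and 2.6 CPM against 14.7, 10.2 and 17.8 CPM, a call lost without chow null replicates 1 and 3 or Western null replicate 3 (-2.66 to -2.37).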

How the data were processed

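Bulk RNA of mouse liver was prepared with a SMART-Seq library kit, per the labels' protocols. The deposited table holds raw counts per gene; per the submitters' processing notes the tools were STAR 2.7.11, featureCounts 2.0.1 and DESeq2 1.42.0, with build GRCm39, without settings. In the file, counts span whole genes and 10408 genes inside another gene are at 0. Columns were matched to samples by their labels, and no sample column was left unused.

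Here all 12 libraries of the 4 groups were fitted with edgeR 4.0.16 (TMM library sizes, filterByExpr by group, quasi-likelihood test), so that the groups share an estimate of spread, and Western null was contrasted with chow null. Genes with a Benjamini-Hochberg adjusted p under 0.05 were called. The script was tested on simulated data: 11% of 2-fold and 72% of 4-fold changes were recovered, with 3 false calls (3.49% of calls). Ratios for genes with at most 3 counts in a group have exact 95% intervals that cover counting error only. The genes and lists were chosen with earlier results of these data known. Named genes were those with the largest CPM difference, up to 5 per list by adjusted p, the most abundant of lists with few calls, runs of at least 4 called neighbours, called genes with the largest Western null spread, and those whose promoter is shown. Other genes, among them Igf1, Stat5b, Cpt1a, Ppara, Acta2, Tgfb1, Nr1d1, Clec4f, Hnf4a, H2-K1 and H2-D1, were added with their values in view. A few genes that the rule names are not reported here, and they remain in the counts over lists. Replicates of a group differed beyond sampling noise. Promoters came from RefSeq, GRCm38.p6. Alternatives were another scaling, filters, DESeq2 1.42.0, limma 3.58.1, the 6 libraries alone, a replicate block, thinned counts, 18S left out, genes without overlaps, and single libraries left out.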

Additional observations from a re-analysis of the deposited data

How the results depend on the processing

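No named gene that was called changed sign in the 19 alternative settings; of 283 such genes 139 were called in every setting, 97 lost the call in 1 to 5 and 47 in more. With single libraries left out, between 337 and 809 genes were higher and between 321 and 1008 lower, and between 0 and 10 had an interval within 0.5 log2 units of 0 (60 with all libraries). Of these omissions that of chow null replicate 3 gave the fewest calls in both directions. Some settings called more genes than the 769 higher and 808 lower of the main fit. On the 6 libraries alone 984 were higher and 1014 lower, with DESeq2 1025 and 1001, and with limma-voom 964 and 894. With counts thinned to equal depth 551 were higher and 560 lower. With genes that overlap a neighbour left out 428 were higher and 357 lower, out of 6352 tested. Without the libraries above 25% 18S, which leaves chow null replicate 3 alone, assumed to vary like the other groups, 368 were higher and 663 lower, so that 35.7% of calls were higher, and 0 genes had the narrow interval. That number was 4 without the filter on low counts, 100 with DESeq2, 125 with limma-voom, 25 with counts thinned to equal depth and 145 with the gene-span trend removed, which was chosen after seeing the data; the cause was not tested. Same-numbered samples of the 2 groups did not deviate together (correlations -0.068, 0.038 and 0.052), and those of other numbers ran from -0.156 to 0.167. With 3 libraries per group this cannot decide whether the numbers pair samples. With the replicate block 820 genes were higher and 853 lower on the 6 libraries (10 within the narrow bound), and 573 and 584 on all 12 (9 within it). The shallow libraries limit genes near 1 CPM, where 3 counts or fewer lie behind a value.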
